A study of Mus musculus with 21 samples.

Results

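A group of 8 genes of the BCL2 family was followed through the series: Bcl2, Bcl2l1, Mcl1, Bcl2a1b, Bcl2l11, Bid, Bak1 and Pmaip1. They were taken by symbol from the rows of 3 expression tables, which together hold 16782 distinct gene names, and all 8 are in each table. The RNA came from 21 libraries of cultured, established lines of murine AML (acute myeloid leukaemia), all grown with murine stem cell factor supplied by CHO cells. Flag-tagged NUP98-NSD1, which joins a nuclear pore protein to a histone methyltransferase, transformed the line used in 15 libraries. Flag-tagged MLL-AF9, which joins the methyltransferase MLL to AF9, transformed the line used in the other 6. The labels do not say whether a line is 1 clone.

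In the inhibitor experiment, NUP98-NSD1 cells were given UNC1999 or JQEZ5 at 3 µM, or the solvent DMSO, for 4 days (3 libraries each). Both compounds inhibit PRC2, the complex that methylates lysine 27 of histone H3. In the knockdown, NUP98-NSD1 cells were infected with a pLKO.1-puro lentivirus carrying an shRNA against Kdm5b (shKdm5b) or the empty vector (shEV) and selected with puromycin (3 libraries each). Kdm5b encodes a demethylase of histone H3 lysine 4. In the overexpression, MLL-AF9 cells were infected with an MSCV-neo retrovirus carrying wild-type Kdm5b (WT), its demethylase-dead mutant (H499A) or the empty vector (EV), with 2 libraries each. The question each experiment asks is how the treated group differs from its own DMSO or vector control. The labels do not say whether replicates were separate cultures or infections, so p-values may measure technical spread only.

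Proteins of this family set the threshold of mitochondrial apoptosis. Survival members (BCL2, BCL-XL from Bcl2l1, MCL1 and A1 from the Bcl2a1 genes) hold the pore-forming effectors BAK and BAX in check. BH3-only proteins such as BIM (Bcl2l11), BID and NOXA (Pmaip1) bind survival proteins or activate the effectors. MCL1 is a short-lived protein on which myeloid cells and many leukaemias depend, and NOXA binds MCL1 preferentially. The libraries measure RNA only. In bulk RNA, fewer cells of a type and less RNA per cell cannot be told apart.

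Mcl1, Bcl2l11 and Bcl2l1 are shown first by sequence because their RNA rose together under both inhibitors, and Bcl2 because it differed most between groups. The 250 bases before each gene's start, from RefSeq on GRCm38.p6, were searched on both strands for 3 short motifs, printed in capitals. These were the GC box GGGCGG (found in 32.7% of 32851 mouse promoters of the same length), the E-box CACGTG (6.02%) and the ATF/CREB half-site TGACGT (6.47%).
Mcl1 (chr3:95658471-95658720, plus strand): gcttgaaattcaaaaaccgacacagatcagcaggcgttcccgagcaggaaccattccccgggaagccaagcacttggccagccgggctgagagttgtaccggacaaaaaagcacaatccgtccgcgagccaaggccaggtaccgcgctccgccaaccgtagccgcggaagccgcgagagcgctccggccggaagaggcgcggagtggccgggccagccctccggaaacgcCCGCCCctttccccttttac
Bcl2l11 (chr2:128125788-128126037, plus strand): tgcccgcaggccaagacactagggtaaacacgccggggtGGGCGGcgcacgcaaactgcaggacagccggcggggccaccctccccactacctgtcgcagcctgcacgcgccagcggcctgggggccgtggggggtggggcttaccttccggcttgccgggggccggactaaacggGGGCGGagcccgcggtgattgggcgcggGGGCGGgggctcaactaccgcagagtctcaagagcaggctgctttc
Bcl2l1 (chr2:152831729-152831978, minus strand): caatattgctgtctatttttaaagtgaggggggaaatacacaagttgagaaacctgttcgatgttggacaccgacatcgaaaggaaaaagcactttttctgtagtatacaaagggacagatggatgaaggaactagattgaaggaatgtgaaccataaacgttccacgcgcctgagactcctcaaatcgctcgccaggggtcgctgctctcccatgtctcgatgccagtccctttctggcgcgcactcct
Bcl2 (chr1:106714291-106714540, minus strand): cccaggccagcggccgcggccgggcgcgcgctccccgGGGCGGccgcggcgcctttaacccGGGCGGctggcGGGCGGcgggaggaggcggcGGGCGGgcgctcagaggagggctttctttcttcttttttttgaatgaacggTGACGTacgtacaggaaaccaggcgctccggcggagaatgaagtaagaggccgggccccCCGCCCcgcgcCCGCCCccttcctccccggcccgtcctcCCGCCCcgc
The Mcl1 window held 1 GC box and the Bcl2l11 window, upstream of 1 of 2 listed starts, held 3. The Bcl2l1 window, upstream of 1 of 3 listed starts, held no match to any of the 3 motifs. In the Bcl2 window there were 7 GC boxes and 1 ATF/CREB half-site, with 74.8% G and C bases against a median of 52.4% over all promoters. The G and C share was 72% in the Bcl2l11, 64.4% in the Mcl1 and 47.6% in the Bcl2l1 window. The letters describe these windows and show no binding.

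Bcl2a1b is 1 of 3 near-identical genes on chromosome 9. The first 60 coding bases of the copies are shown because short reads have to be divided among them, with capitals at the 6 positions where any copies differ.
Bcl2a1a: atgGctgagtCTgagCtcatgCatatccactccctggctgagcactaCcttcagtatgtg
Bcl2a1b: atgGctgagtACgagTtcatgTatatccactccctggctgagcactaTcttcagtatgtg
Bcl2a1d: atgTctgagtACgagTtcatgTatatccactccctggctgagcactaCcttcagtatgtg
Over 519 coding bases the copies were 97.9% to 98.8% identical, and 57.6% of the 50-base windows of the Bcl2a1b transcript also occurred in another copy. Exons of Bcl2a1b also overlap Gm29094, a protein-coding gene on the same strand, so strand would not separate their reads. How the reads of Bcl2a1b were split is therefore uncertain.

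Depth was 12812646 to 18928764 reads per library in the inhibitor experiment, 21273211 to 34813867 in the knockdown and 17341257 to 19973218 in the overexpression. Kdm5b itself averaged 28.7 normalised counts in shKdm5b cells against 74.5 in shEV cells (below the filter for testing, adjusted p = 0.00401 in limma's fit of all genes), and 886 in UNC1999, 658 in JQEZ5 and 607 in DMSO cells. In the overexpression it averaged 1413 normalised counts in WT, 294 in H499A and 121 in EV cells. Total Kdm5b RNA, of the cell's own gene and the construct together, was thus 4.80-fold higher in WT than in H499A cells. One knockdown library stood apart: shKdm5b replicate 1 differed from replicates 2 and 3 by a chi-square of 18.3 and 17.0 per degree of freedom, against 6.75 between replicates 2 and 3 and 2.19 to 2.74 between shEV libraries. Without it the genes called in the knockdown numbered 5556, against 3509 with it. Replicates were uneven in the other experiments too. The WT libraries differed by a chi-square of 9.98 per degree of freedom, against 1.504 between H499A and 1.77 between EV libraries. In the inhibitor experiment the values were 4.36 to 8.95 between UNC1999, 2.92 to 6.19 between JQEZ5 and 2.798 to 3.77 between DMSO libraries. Normalised counts are reads scaled to the libraries of 1 table. Levels across tables are given as RPM, a library's reads scaled to its own total, with no test, because the tables were normalised separately. Levels of different genes are compared only as RPM per kilobase of annotated exon (RPKM).

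Defining markers of blood cells fixed for this work placed the cells as myeloid. Summed markers of erythroid cells reached 1.25 RPM in any library, of T and NK cells 3.08 RPM, of megakaryocytes 5.86 RPM and of B cells 36.5 RPM. Summed stromal and endothelial markers stood at 53.6 to 316 RPM, and myeloid progenitor markers at 5504 to 11058 RPM. Several lists moved with the groups. The summed level of monocyte and macrophage markers was 17469 to 18104 RPM in UNC1999, 12121 to 12197 RPM in JQEZ5 and 6098 to 6168 RPM in DMSO libraries. It was 1275 to 1485 RPM in shKdm5b against 1593 to 1618 RPM in shEV libraries. In MLL-AF9 cells it was 2686 to 2834 RPM in WT, 1650.2 to 1655 RPM in H499A and 855 to 902 RPM in EV libraries. In shKdm5b libraries the summed basophil and mast cell markers stood at 85.7 to 97.8 RPM, against 2.88 to 3.48 RPM in shEV, and B cell markers at 22.1 to 27.6 RPM, against 10.6 to 13.04 RPM in shEV. These sums rest on few genes. Of 8 basophil and mast cell markers 2 were measured there and 1 was tested, which was called higher. Of 7 B cell markers 3 were measured and 2 tested, 1 called higher and 1 lower. Late neutrophil markers summed to 596 to 622 RPM in UNC1999, 261 to 281 RPM in JQEZ5 and 192 to 198 RPM in DMSO libraries. They summed to 91.1 to 92.6 RPM in WT, 58.9 to 59.5 RPM in H499A and 28.1 to 28.6 RPM in EV libraries. In shKdm5b libraries they summed to 49.7 to 55.4 RPM, against 25.9 to 29.9 RPM in shEV libraries. Progenitor markers summed to 8122 to 8313 RPM in WT, 5994 to 6006 RPM in H499A and 5842 to 6085 RPM in EV libraries. The part of these cell types in the results that follow was not tested.

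Across the 8 groups Bcl2 spanned the widest range of levels, and Bcl2l1 the narrowest. Bcl2 averaged 179 ± 2.64 RPM (SD, n = 2) in WT MLL-AF9 cells and 9.60 ± 1.02 RPM (SD, n = 3) in UNC1999-treated NUP98-NSD1 cells, the highest and lowest groups, an 18.7-fold span. Its order was WT, EV, H499A, the shRNA groups and the inhibitor groups. In it, shKdm5b overlapped shEV, JQEZ5 overlapped DMSO, and DMSO overlapped UNC1999. Mcl1 ran from 594 ± 15.0 RPM in UNC1999 to 159 ± 6.99 RPM in shKdm5b cells, a 3.73-fold span, with an overlap of libraries only between the neighbours shEV and shKdm5b. Bcl2l11 ran from 99.0 ± 7.20 RPM in UNC1999 to 18.9 ± 0.931 RPM in EV cells, a 5.23-fold span, and its lower groups shKdm5b, shEV and H499A overlapped in sequence. Pmaip1 was highest in EV, at 143 ± 1.71 RPM, where it overlapped DMSO, and lowest in shEV, at 52.7 ± 1.63 RPM. Bak1 (2.09-fold between H499A and UNC1999), Bid (1.74-fold between shKdm5b and H499A) and Bcl2l1 (1.66-fold between UNC1999 and WT) varied least among the members. The 2 control cultures of NUP98-NSD1 cells, DMSO and shEV, already differed in level. Mcl1 averaged 408 RPM in DMSO and 168 RPM in shEV cells, and Bcl2l11 64.3 RPM in DMSO and 22.8 RPM in shEV cells. Kdm5b averaged 40.1 RPM in DMSO and 2.52 RPM in shEV cells (71 to 112 reads), so its knockdown started from a low level. Differences of culture, library and sequencing run cannot be told apart across experiments.

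**Figure D1:**
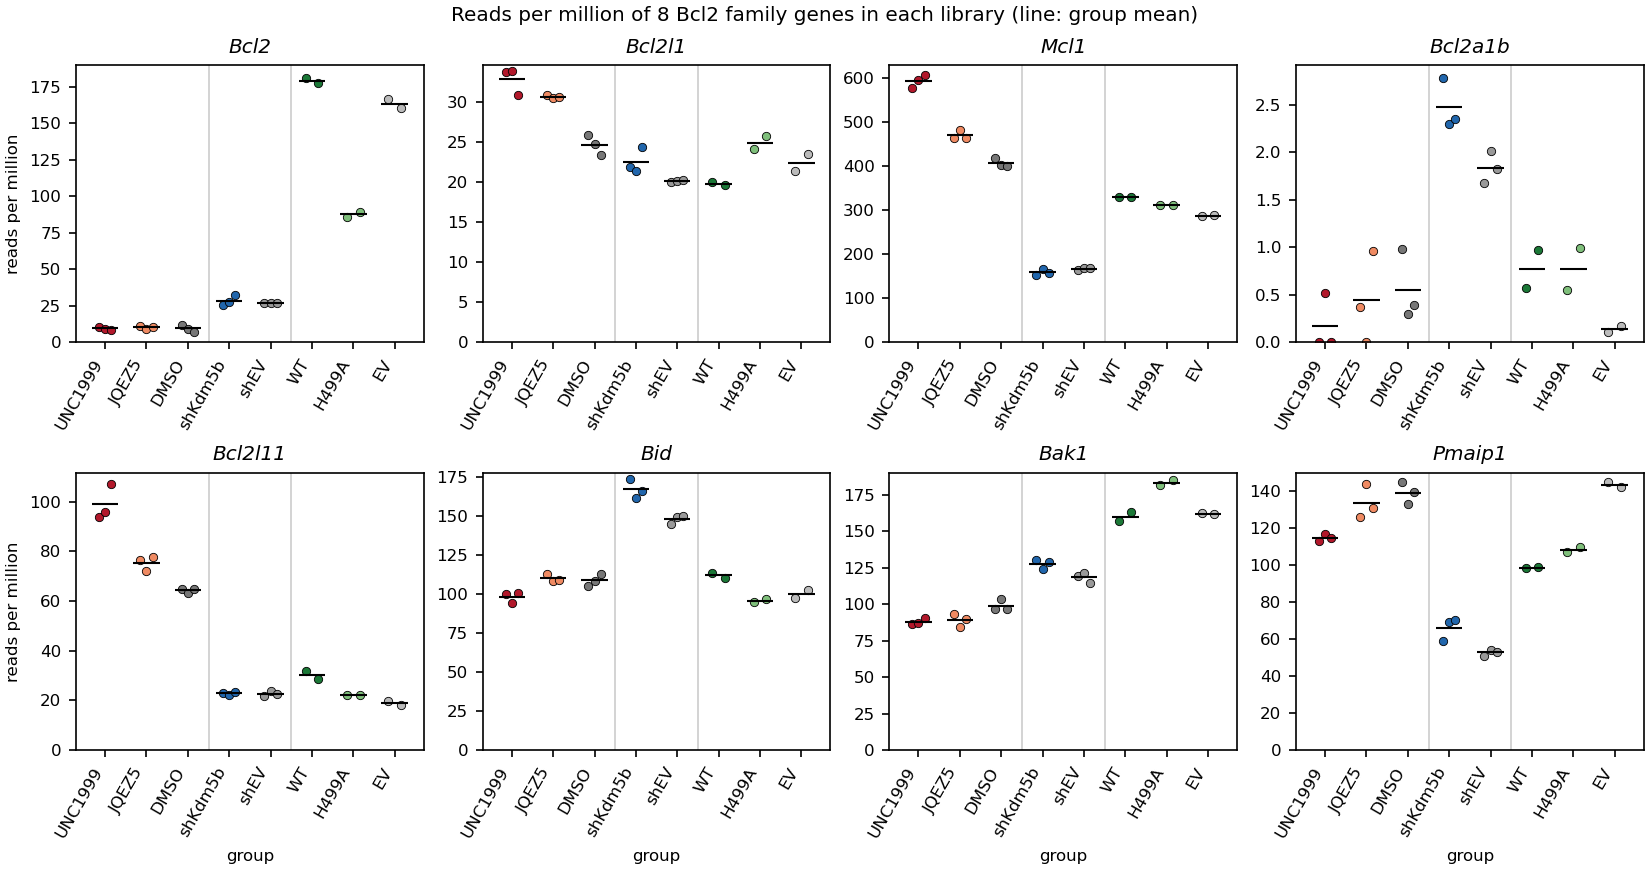
RPM (y axis, from 0) of each of the 8 genes in every library (points) with the group mean (line), for the inhibitor, knockdown and overexpression groups (x axis, separated by grey lines). Bcl2 stands at 177 to 181 RPM in the WT libraries and 86.1 to 89.3 RPM in the H499A libraries, and Mcl1 at 578 to 607 RPM in the UNC1999 libraries.

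Mcl1 made up most of the summed RPKM of the 4 survival members Mcl1, Bcl2, Bcl2l1 and Bcl2a1b in every group. Its share averaged 95.4% in UNC1999, 94.3% in JQEZ5 and 94.4% in DMSO cells, 80.8% in shKdm5b and 83.7% in shEV cells, and 79.6% in WT, 85.2% in H499A and 78.6% in EV cells. Bcl2 held 16.1% in WT, 8.92% in H499A and 16.7% in EV cells, but 0.577% in UNC1999, 0.781% in JQEZ5 and 0.827% in DMSO cells. These shares rest on the full annotated exon length, which overstates the length of genes with short expressed isoforms. They are shares of these 4 genes only, without Bcl2a1a, Bcl2a1d and Bcl2l2. In shKdm5b cells those genes averaged 34.3, 10.1 and 10.5 RPKM, against 46.6 for Mcl1. In shEV cells they averaged 20.1, 7.19 and 8.01 RPKM, against 49.1 for Mcl1, and in DMSO cells 8.83, 3.40 and 8.31, against 119. Relative to Mcl1, Pmaip1 RNA stood at 24.2 ± 0.507 RPKM per 100 RPKM of Mcl1 in UNC1999, 35.5 ± 1.68 in JQEZ5 and 42.6 ± 1.36 in DMSO cells (SD, n = 3 each). Bcl2l11 stood at 7.09 ± 0.371, 6.83 ± 0.414 and 6.71 ± 0.171 per 100 RPKM of Mcl1 in UNC1999, JQEZ5 and DMSO cells, and their libraries overlapped. The Pmaip1 ratio was lower in every UNC1999 library than in any JQEZ5 or DMSO library.

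**Figure D2:**
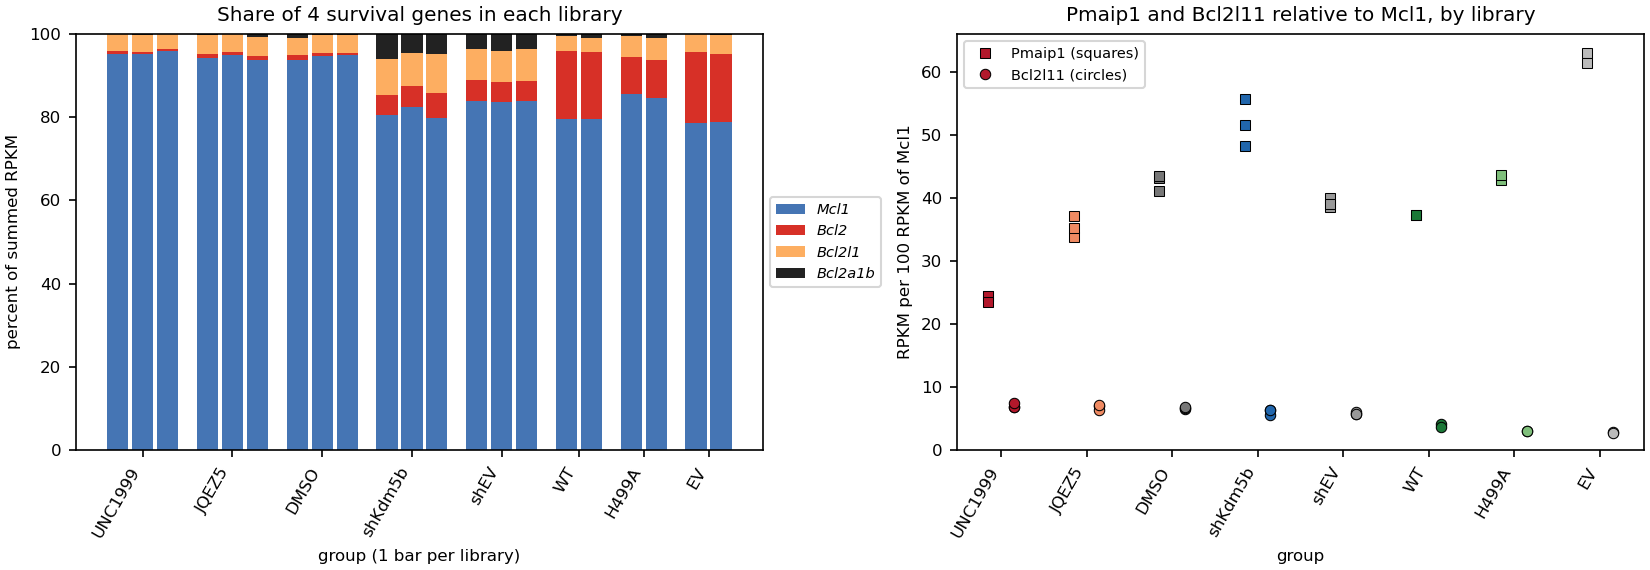
Left, the share (percent of summed RPKM) of Mcl1, Bcl2, Bcl2l1 and Bcl2a1b in each library (bars). Right, the RPKM of Pmaip1 (squares) and Bcl2l11 (circles) per 100 RPKM of Mcl1 in each library. The Pmaip1 ratio lies at 23.6 to 24.5 in UNC1999, 33.9 to 37.2 in JQEZ5 and 41.1 to 43.6 in DMSO libraries.

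UNC1999 was accompanied by more RNA of Mcl1, Bcl2l11 and Bcl2l1 and less of Pmaip1, so members on both sides of the apoptotic balance rose. Of the 7 members tested against DMSO, 3 were called higher and 1 lower at an adjusted p under 0.05 in limma's test, while 47.9% of all 10694 tested genes were called either way, 23.9% higher and 24% lower. Mcl1 had 9190.3, 9414 and 9537 normalised counts in UNC1999 libraries, against 6345, 6113 and 6088 in DMSO libraries. Every UNC1999 library was higher, by 1.52-fold on average (log2 difference 0.58 ± 0.03 SE, limma adjusted p = 1.39e-10). Bcl2l11, which encodes the BH3-only protein BIM, had 1493, 1514 and 1685 counts in UNC1999 libraries, against 978, 958 and 986 in DMSO libraries. The groups did not overlap, and the level was 1.61-fold higher (log2 difference 0.58 ± 0.04 SE, limma adjusted p = 2.49e-08). Bcl2l1, the gene of the survival protein BCL-XL, had 536, 533 and 484 counts in UNC1999 libraries, against 389.8, 374 and 355 in DMSO libraries. This was 1.39-fold higher, with no overlap (log2 difference 0.33 ± 0.05 SE, limma adjusted p = 2.29e-05).

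Pmaip1, the gene of NOXA, was the member that fell with UNC1999. It had 1799.7, 1837 and 1798 counts in UNC1999 libraries, against 2191, 2008 and 2122 in DMSO libraries. All UNC1999 libraries were lower, at 0.860-fold (log2 difference -0.20 ± 0.04 SE, limma adjusted p = 0.00139). Bak1, which encodes a pore-forming effector, and Bid, whose protein is activated by caspase-8, differed by -0.10 (adjusted p = 0.0612) and -0.08 (adjusted p = 0.0989) log2 units in limma's test. Bak1 passed the threshold after quantile normalisation, in a fit of only these 2 groups and in a count-based voom fit, with adjusted p of 0.0260, 0.0477 and 0.0356, and Bid only after quantile normalisation (0.0233). For Bcl2 the groups overlapped, with 151.7 ± 17.1 counts in UNC1999 and 145.7 ± 36.4 in DMSO cells (SD, n = 3 each), and the interval of the log2 difference ran from -0.13 to 0.20. Libraries did not overlap for 6 of the 7 members, against 55.1% of all tested genes.

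With JQEZ5 the same 3 genes, Mcl1, Bcl2l1 and Bcl2l11, were called higher than with DMSO. Against DMSO, 3 of 7 members were called higher and 4 were not called, beside 23.6% of all tested genes called either way and 13.1% called higher. None was called lower by limma or by voom, with 1 at an unadjusted p under 0.05. Libraries did not overlap for 4 of the 7, against 41.6% of all tested genes. Mcl1 had 7211, 7458 and 7173 counts in JQEZ5 libraries, all above the DMSO libraries given above, at 1.18-fold (log2 difference 0.23, limma adjusted p = 2.32e-05). Bcl2l1 had 478, 469.8 and 474 counts with JQEZ5 and was 1.27-fold higher than with DMSO (log2 difference 0.24, limma adjusted p = 0.00123). Bcl2l11 had 1184, 1114 and 1203 counts with JQEZ5 and was 19.8% higher than with DMSO (log2 difference 0.22, limma adjusted p = 0.00172). Pmaip1 averaged 2065 ± 138 counts in JQEZ5 and 2107 ± 92.6 in DMSO cells (SD, n = 3 each), and the libraries overlapped. The 2 comparisons share the DMSO libraries, so their likeness is no independent result.

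Set directly against each other at the same dose and time, the 2 inhibitors differed in Mcl1, Bcl2l11, Pmaip1 and Bid. UNC1999 libraries had more Mcl1 than JQEZ5 libraries (log2 difference 0.36, interval 0.30 to 0.42, limma adjusted p = 1.89e-07) and more Bcl2l11 (0.36, interval 0.27 to 0.45, limma adjusted p = 1.19e-05). They had less Pmaip1 (-0.17, limma adjusted p = 0.00589) and less Bid (-0.12, limma adjusted p = 0.0207). With p adjusted over all 10694 genes, 2 members were called higher and 2 lower, beside 36.4% of all tested genes. Libraries did not overlap for 5 of the 7, against 45.2% of all tested genes. The Bid call was lost without UNC1999 replicate 2 (adjusted p = 0.0964) or without JQEZ5 replicate 1 (0.0812). For Bcl2l1 the difference was 0.09 log2 units with an interval from -0.01 to 0.19 (adjusted p = 0.133), and it passed without UNC1999 replicate 3 (0.0365). For Bcl2 and Bak1 the intervals ran from -0.21 to 0.12 and from -0.08 to 0.09. Monocyte and macrophage markers stood in the same order as Mcl1, UNC1999 above JQEZ5 above DMSO, with 9 of 9 tested markers higher in UNC1999 than in JQEZ5 cells. Their part in the member differences was not tested.

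**Figure D3:**
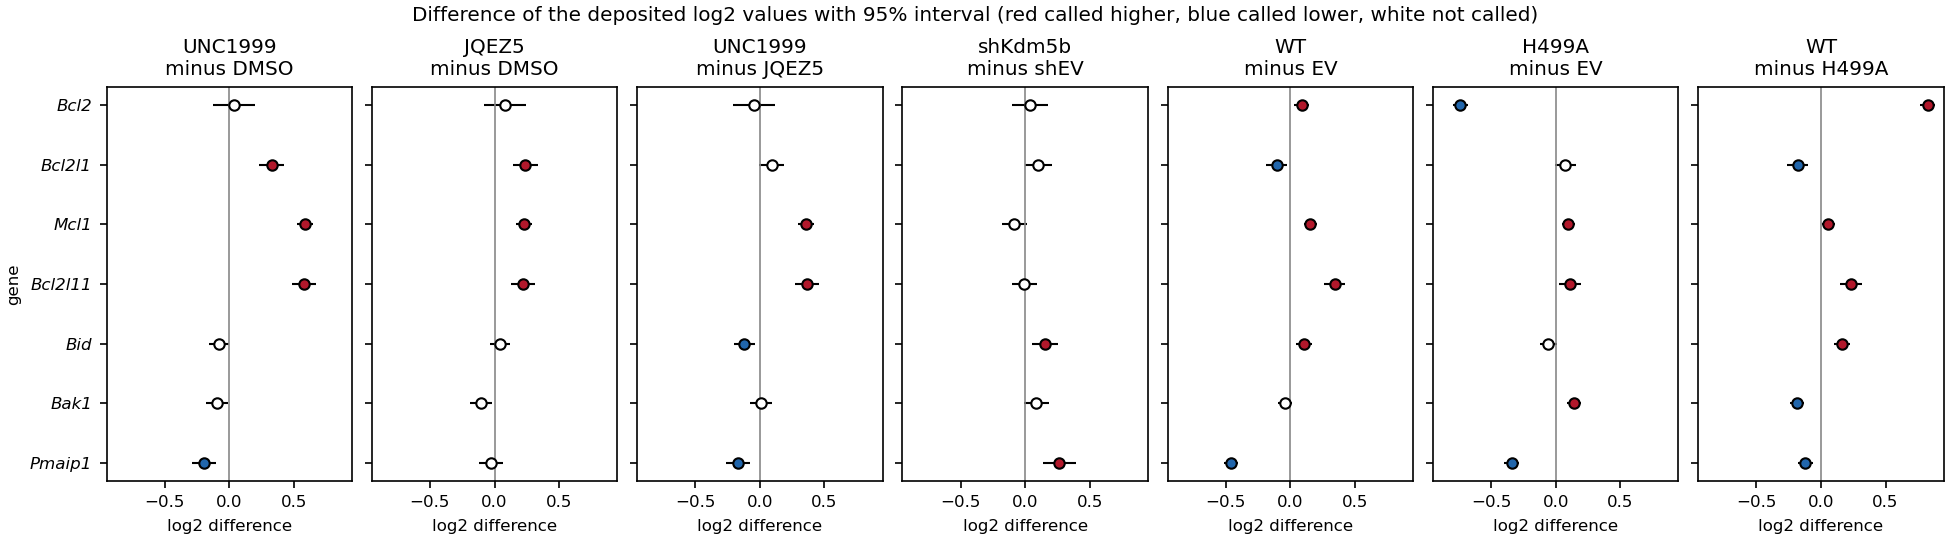
Log2 difference of the deposited values (x axis, 95% interval) for the 7 tested members (y axis) in the 7 comparisons (panels). Red points were called higher, blue lower and white not called. Mcl1 and Bcl2l11 both lie at 0.58 for UNC1999 minus DMSO, and Bcl2 lies at -0.74 for H499A minus EV.

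In the knockdown of Kdm5b, Pmaip1 and Bid were called higher in shKdm5b than in shEV cells and the other 5 tested members were not called, beside 32.5% of all 10810 tested genes called either way. None was called lower by limma or voom, and none was lower at an unadjusted p under 0.05. Libraries did not overlap for 5 of the 7, against 49% of all tested genes. Pmaip1 had 1748, 2009 and 2044 counts in shKdm5b libraries, against 1504, 1595 and 1565 in shEV libraries. All 3 knockdown libraries were higher, by 1.24-fold on average (log2 difference 0.26 ± 0.06 SE, limma adjusted p = 0.00839). Bid had 5153, 4723 and 4833 counts in shKdm5b libraries, against 4288, 4411 and 4438 in shEV libraries, 1.12-fold higher without overlap (log2 difference 0.15 ± 0.04 SE, limma adjusted p = 0.0298). The Bid call was lost without any 1 of the shEV libraries (adjusted p = 0.139, 0.0982 and 0.0898 without replicate 1, 2 and 3). Without shKdm5b replicate 1 the log2 differences were 0.32 for Pmaip1 (adjusted p = 0.000111) and 0.12 for Bid (0.0105), and the other 5 tested members were again not called.

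Mcl1, Bcl2, Bcl2l1, Bcl2l11 and Bak1 were not called in the knockdown. Mcl1 averaged 4659 ± 178 counts in shKdm5b and 4954 ± 72.0 in shEV cells (SD, n = 3 each), a log2 difference of -0.08 with an interval from -0.18 to 0.01. Bcl2l11 averaged 668 ± 20.1 counts in shKdm5b and 672 ± 27.6 in shEV cells, and the interval of the log2 difference ran from -0.10 to 0.09. Bcl2l1 (0.10, adjusted p = 0.124), Bak1 (0.09, adjusted p = 0.143) and Bcl2 (0.04, adjusted p = 0.648) had small positive log2 differences in limma's test. In this comparison 7 of 9 tested monocyte and macrophage markers were lower and 1 higher in shKdm5b cells, and their part was not tested.

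In MLL-AF9 cells both Kdm5b constructs went with less Pmaip1. Of the 7 tested members, 4 were called higher and 2 lower in WT than in EV cells, beside 62.2% of all 9458 tested genes called, 29.8% higher and 32.4% lower. In H499A cells 3 were called higher and 2 lower than in EV cells, beside 49.6% called, with 22.7% of all tested genes higher. Pmaip1 had 1809.8 and 1803 counts in WT, 1987 and 2029 in H499A and 2699 and 2659.5 in EV libraries. The WT libraries were 0.674-fold the EV level (log2 difference -0.46 ± 0.03 SE, limma adjusted p = 1.18e-13) and the H499A libraries 0.749-fold (log2 difference -0.34 ± 0.03 SE, limma adjusted p = 9.2e-11). The 2 comparisons share the EV libraries. With 2 libraries a group an exact permutation test over samples cannot go below p = 0.333, so these calls rest on the spread pooled over the table. The WT libraries differed more from each other than the H499A or EV libraries did. The pooled spread may therefore be too small for comparisons with WT.

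Bcl2 differed most between the constructs. It had 3329.8 and 3237 counts in WT, 1597 and 1655 in H499A and 3117 and 2996 in EV libraries. The H499A libraries were far below both other groups, at 0.532-fold the EV level (log2 difference -0.74 ± 0.03 SE, limma adjusted p = 1.41e-17). WT was 1.07-fold the EV level (log2 difference 0.09 ± 0.03 SE, limma adjusted p = 0.00904), a call lost without WT replicate 1 (0.0557) or without EV replicate 2 (0.133). Directly compared, WT cells had 2.02-fold the Bcl2 RNA of H499A cells (log2 difference 0.83, interval 0.77 to 0.88, limma adjusted p = 1.62e-18). The mutation, the lower total Kdm5b RNA in H499A cells and anything particular to 1 infected population cannot be told apart here. An antisense transcript, D630008O14Rik, overlaps Bcl2 exons (chr1:106538178-106714274, minus strand, GRCm38) and is not a row of the tables used here, so its reads cannot be told apart from those of Bcl2 unless strand was used.

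Bcl2l11 was higher with WT Kdm5b. It had 587 and 526 counts in WT, 411 and 414 in H499A and 366 and 342 in EV libraries. WT was 1.57-fold the EV level (log2 difference 0.34 ± 0.04 SE, limma adjusted p = 3.53e-08) and 1.35-fold the H499A level (0.23, limma adjusted p = 2.1e-05). H499A was 1.17-fold the EV level (0.11, limma adjusted p = 0.0233), and this call was lost without H499A replicate 1 (0.0790), H499A replicate 2 (0.0923) or EV replicate 2 (0.168). Mcl1 rose with both constructs by small amounts, with 6061 and 6045 counts in WT, 5791 and 5801 in H499A and 5349.6 and 5412 in EV libraries. Its log2 differences from EV were 0.15 (limma adjusted p = 2.98e-06) in WT and 0.10 (limma adjusted p = 0.00119) in H499A cells.

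Bak1 and Bid moved in opposite ways between the constructs. Bak1 had 2882 and 2975 counts in WT, 3365 and 3426 in H499A and 3026 and 3027 in EV libraries. H499A was above EV (log2 difference 0.14, limma adjusted p = 6.94e-05), whereas WT differed from EV by -0.04 (adjusted p = 0.190). Bid had 2091 and 2019 counts in WT, 1759 and 1801 in H499A and 1818 and 1925 in EV libraries. WT was above EV for Bid (log2 difference 0.11, limma adjusted p = 0.00346, lost without EV replicate 1 at 0.0872), and H499A differed from EV by -0.06 (adjusted p = 0.128). Bcl2l1 was lower in WT than in EV cells (log2 difference -0.10, limma adjusted p = 0.0234), a call lost without WT replicate 2 (0.0844) or EV replicate 2 (0.220), and differed by 0.07 in H499A (adjusted p = 0.122).

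Between WT and H499A all 7 tested members were called, 4 higher and 3 lower in WT, beside 54.4% of all tested genes called, 28.2% higher and 26.3% lower. Bcl2, Bcl2l11, Bid and Mcl1 were higher in WT, and Bak1, Bcl2l1 and Pmaip1 were lower. The log2 differences were -0.18 for Bak1 (limma adjusted p = 2.09e-06), -0.18 for Bcl2l1 (0.000423), 0.16 for Bid (6.03e-05) and -0.12 for Pmaip1 (0.000707). Mcl1 differed by 0.06 (limma adjusted p = 0.0430), a call lost without any 1 of the 6 libraries, with adjusted p of 0.0530 to 0.165. Libraries did not overlap for 7 of 7 members in each of the 3 comparisons of this experiment, against 79.4%, 75% and 75.8% of all tested genes for WT against EV, H499A against EV and WT against H499A. Of 8 tested monocyte and macrophage markers, 7 were higher and 1 lower in WT than in EV cells, and 6 were higher and 1 lower in H499A than in EV cells. All 8 were higher in WT than in H499A cells, and the part of these markers was not tested.

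Bcl2a1b, a survival gene known from myeloid cells, had few assigned reads in every group and was below the filter for testing. It had 82, 65 and 50 reads in shKdm5b libraries, against 57, 70 and 57 in shEV libraries. In the other experiments it had at most 19 reads in a library. UNC1999 libraries held 0, 8 and 0 reads, JQEZ5 7, 0 and 15, and DMSO 15, 4 and 6, where a count of 0 allows up to 0.173 to 0.234 RPM (3 reads, counting error only). Because reads are divided among copies, the 3 Bcl2a1 genes were also summed and fitted by voom on the reads. This sum was fitted whatever its level, without the filter, and did not include Gm29094. The sum was higher in shKdm5b than in shEV cells (log2 difference 0.66, adjusted p = 0.00047). It was also higher in WT than in EV cells (1.90, adjusted p = 1.72e-07) and in H499A than in EV cells (1.91, adjusted p = 2.03e-07). Between WT and H499A cells it differed by -0.01 (adjusted p = 0.965). In MLL-AF9 cells each copy alone lay below the filter, 145 normalised counts there. Bcl2a1d, the copy with most reads, had 8 and 10 reads in EV libraries. It had 43 and 41 in WT and 40 and 45 in H499A libraries, so these differences rest on few reads. With the inhibitors the sum differed from DMSO by -0.19 for UNC1999 (adjusted p = 0.192) and 0.07 for JQEZ5 (adjusted p = 0.691).

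Other genes of the family, 17 in a list, were measured beside the members. The fold changes are of normalised counts and the log2 differences of the deposited scale, which is compressed for low counts. With UNC1999, 2 of 10 tested were higher (Bax and Bnip3), 2 lower and 6 not called, beside 47.9% of all tested genes called, while voom called 0 higher and 3 lower. With JQEZ5 1 was higher, 2 lower and 7 not called, beside 23.6%, and the 3 calls became 1 without JQEZ5 replicate 3 and 5 without UNC1999 replicate 3. Bnip3 with UNC1999 (0.08, adjusted p = 0.0478) lost its call with the replicate block (0.0668), without a filter, with median centring, without trend, with voom and without any 1 of 5 libraries. Bmf, a BH3-only gene, had 948 to 955 counts in UNC1999, 873 to 880.2 in JQEZ5 and 1232 to 1346 in DMSO libraries. It fell by 0.36 and 0.46 log2 units with UNC1999 and JQEZ5 (limma adjusted p = 1.07e-06 and 2.51e-07), while Bcl2l11 rose with both. Bad, another BH3-only gene, was lower with both (-0.21 and -0.19, adjusted p = 0.00356 and 0.0130), the JQEZ5 call being lost without JQEZ5 replicate 2 (0.0508) or 3 (0.0718). The effector gene Bax was higher by 0.12 with UNC1999 and 0.13 with JQEZ5 (adjusted p = 0.0324 and 0.0285), and both calls were lost without DMSO replicate 1 (0.155 and 0.135), with quantile normalisation (0.186 and 0.0649) and without trend (0.0611 and 0.0614). The UNC1999 call was also lost with voom (0.0631) and without UNC1999 replicate 1 (0.0988) or 3 (0.0596), and the JQEZ5 call without JQEZ5 replicate 1 (0.127) or 3 (0.0826). Between the inhibitors none of the 10 tested was called by limma or by voom, with 2 at an unadjusted p under 0.05, and 1 was called with the stricter filter, with median centring or without DMSO replicate 1.

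In shKdm5b cells 4 of 12 tested list genes were higher than in shEV, 1 lower and 7 not called, beside 32.5% of all tested genes called. Bmf averaged 224 ± 15.4 counts in shKdm5b and 112 ± 9.69 in shEV cells (2.01-fold, log2 difference 0.43, limma adjusted p = 0.000278). Bcl2a1a averaged 823 ± 74.3 counts in shKdm5b and 485 ± 33.5 in shEV cells (1.70-fold, limma adjusted p = 0.000321). The mitophagy receptor gene Bnip3l (1.46-fold, adjusted p = 0.000346) and the survival gene Bcl2l2 (1.30-fold, adjusted p = 0.00322) were also higher. The effector gene Bax was at 0.839-fold the shEV level (adjusted p = 0.0398). Bmf was also higher in WT (2.07-fold, limma adjusted p = 8.86e-07) and in H499A (2.38-fold, limma adjusted p = 4.07e-08) than in EV cells. In EV cells it averaged 78.8 counts (73 to 80 reads), below the filter of 145 counts there. Bmf thus entered these tests only through the other groups. Bax in the knockdown and Bmf in WT were picked out after their values were seen.

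In MLL-AF9 cells 4 of 9 tested list genes were higher than in EV, 2 lower and 3 not called, both with WT and with H499A, beside 62.2% and 49.6% of all tested genes called. The effector gene Bax averaged 2567 ± 155 counts in WT, 2200.2 ± 11.1 in H499A and 1631 ± 18.9 in EV cells (SD, n = 2 each). It was higher than EV in WT (1.57-fold, limma adjusted p = 9.95e-14) and in H499A (1.35-fold, limma adjusted p = 8.1e-10). Bbc3, which encodes the BH3-only protein PUMA, averaged 573 ± 8.34 counts in WT, 306 ± 1.06 in H499A and 293 ± 6.92 in EV cells. It was higher in WT than in EV (1.96-fold, limma adjusted p = 1.44e-11) and than in H499A (1.87-fold, limma adjusted p = 7.72e-11). Bnip3, a BH3-like mitophagy gene, averaged 1027 ± 33.3 counts in WT, 2818 ± 31.1 in H499A and 2439.6 ± 44.0 in EV cells. It was lower in WT than in EV (0.421-fold, limma adjusted p = 7.32e-20) and than in H499A (0.364-fold, limma adjusted p = 4.37e-21). Bnip3 was higher in H499A than in EV (log2 difference 0.17, adjusted p = 1.87e-05), as was Bad (0.21, 1.39e-05). Bnip3l was lower in WT than in EV (-0.29, 1.24e-09) and than in H499A (-0.26, 1.42e-08), and Bax was higher in WT than in H499A (0.18, 2.41e-05). Between WT and H499A 4 were higher, 3 lower and 2 not called, beside 54.4% of all tested genes. The list's median log2 difference was -0.02, 0.0084, 0.00084, 0.17, 0.07, 0.04 and -0.03 for UNC1999 and JQEZ5 against DMSO, UNC1999 against JQEZ5, shKdm5b against shEV, WT and H499A against EV, and WT against H499A. Over all tested genes the 7 medians lay between -0.0120 and 0.0072.

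**Figure D4:**
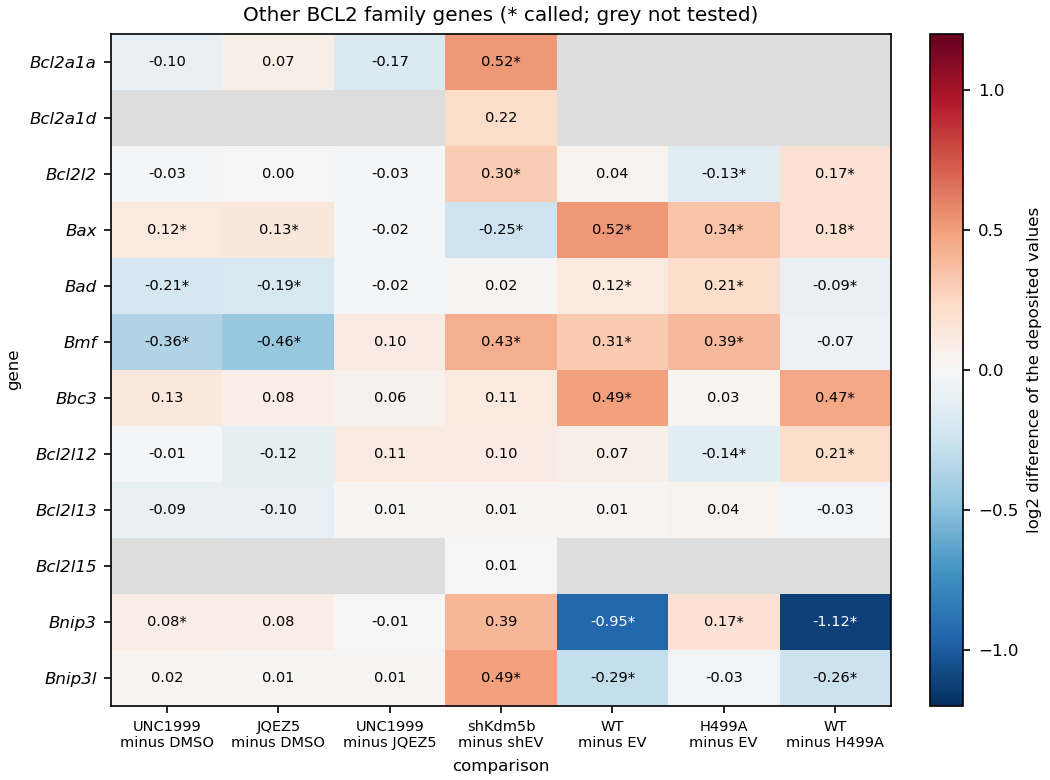
Log2 difference of the deposited values (colour and printed value) for other genes of the family (rows) in the 7 comparisons (columns). An asterisk marks a call and grey a gene below the filter. Bmf reads -0.36 and -0.46 with the inhibitors and 0.43 in the knockdown, and Bnip3 -1.12 between WT and H499A.

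Downstream of the mitochondrion, the list of 20 caspase and mitochondrial pathway genes was tested whole. Its counts, and those of the lists after it, stand beside 47.9% of all tested genes called with UNC1999, 23.6% with JQEZ5, 36.4% between the inhibitors, 32.5% in the knockdown, 62.2% in WT, 49.6% in H499A and 54.4% between WT and H499A. With UNC1999 3 were higher, 6 lower and 11 not called, and the median log2 difference was -0.02 against -0.01 over all tested genes. Birc3, an inhibitor of apoptosis, was higher (1.40-fold, limma adjusted p = 3.4e-07), as was Birc6 (1.25-fold, adjusted p = 1.69e-05). Birc5, the gene of survivin, was lower (0.744-fold, adjusted p = 2.4e-06). With JQEZ5 1 was higher (Birc3, 1.16-fold, adjusted p = 0.00314), 1 lower and 18 not called. Between the inhibitors 4 were higher and 5 lower in UNC1999, among them Birc6 (1.27-fold, adjusted p = 1.64e-05), Birc3 (1.21-fold, 0.000233), Birc5 (0.772-fold, 2.28e-05) and Aifm1 (0.824-fold, 0.00082). In shKdm5b cells 5 were higher, 3 lower and 12 not called, with Casp2 (1.29-fold, adjusted p = 0.000717), Birc5 (1.17-fold, 0.00833) and Birc3 (1.16-fold, 0.0137) among the higher. The count of 8 there fell to 2, 3 and 4 without shEV replicate 2, 3 and 1. The Birc3 call was lost without shEV replicate 2 (0.0810) or 3 (0.0556), and the Birc5 call without shEV replicate 2 (0.0502).

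In WT MLL-AF9 cells 5 of the 20 were higher, 8 lower and 7 not called, and in H499A cells 7 were higher, 3 lower and 10 not called. Cycs, the gene of cytochrome c, was lower in WT than in EV (0.766-fold, adjusted p = 1.02e-11) and than in H499A (0.685-fold, adjusted p = 1.32e-14). In H499A, Casp2 was lower (0.813-fold, adjusted p = 5.58e-07) and Casp9 higher (1.28-fold, adjusted p = 7.77e-06) than in EV. Birc3 was higher than EV in both (log2 difference 0.22 in WT and 0.21 in H499A, adjusted p = 5.77e-06 and 1.63e-05). Htra2 was lower in WT than in EV (-0.16, 1.96e-05) and Vdac2 higher in H499A than in EV (0.15, 9.4e-06). Between WT and H499A 2 were higher, 9 lower and 9 not called, with Vdac2 (-0.21, 5.98e-08) and Aifm1 (-0.18, 9.08e-06) lower. In the same order of comparisons as above, the list's medians were -0.02, -0.0055, -0.05, -0.03, -0.04, 0.04 and -0.04. The number called in WT was 8 without WT replicate 1, and in H499A 6 without H499A replicate 1 or EV replicate 2.

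Of 14 tested genes of the death receptor pathway, 4 were higher and 2 lower with UNC1999, 3 higher and 11 not called with JQEZ5, and 4 higher and 10 not called in UNC1999 against JQEZ5. The TNF receptor gene Tnfrsf1b averaged 29948 ± 951 counts in UNC1999, 22126 ± 288 in JQEZ5 and 16865 ± 14.9 in DMSO cells, with limma adjusted p of 1e-12 and 3.58e-08 against DMSO. It was 1.35-fold higher in UNC1999 than in JQEZ5 cells (adjusted p = 1.34e-08). Tnf was higher in UNC1999 than in DMSO cells (log2 difference 0.43, adjusted p = 6.26e-06) and than in JQEZ5 cells (0.28, 0.000646), and Ripk3 was lower in UNC1999 than in DMSO cells (-0.21, 0.000759). None was called lower with JQEZ5 or between the inhibitors by limma or voom, with 4 and 2 lower at an unadjusted p under 0.05. Tnfaip3 with JQEZ5 (0.10, 0.0281) lost its call without any 1 of 5 libraries. The 3 calls with JQEZ5 became 6 without UNC1999 replicate 3, 6 in a fit of only these 2 groups and 5 with quantile normalisation. Tnfrsf1a (0.16, 0.00131) and Cflar (0.13, 0.0353) were higher in UNC1999 than in JQEZ5 cells. The Cflar call was lost without UNC1999 replicate 3 (0.149) or any 1 of the JQEZ5 libraries (0.0551 to 0.124). It was also lost with voom (0.0615), with quantile normalisation (0.0789), without trend (0.069) and without a filter (0.0503). Fas, the gene of the death receptor CD95, was higher with UNC1999 (1.21-fold, adjusted p = 1.45e-05) and with JQEZ5 (1.13-fold, adjusted p = 0.00186). In shKdm5b cells 4 were higher, 1 lower and 9 not called, with Fas 49.6% (adjusted p = 0.000249), Tnfrsf1b 27.8% (0.000621) and Casp8 25.3% (0.000713) above the shEV level and Tnf at 0.821-fold (0.00554). In WT cells 6 were higher and 3 lower than in EV, and in H499A cells 5 were higher and 2 lower. Fas averaged 197 ± 39.4 counts in WT, 378 ± 15.8 in H499A and 112 ± 10.4 in EV cells. Its EV level lay below the filter of 145 counts, so Fas entered the test only through the other groups. Fas was 3.37-fold higher in H499A than in EV (limma adjusted p = 1.98e-12) and lower in WT than in H499A (0.521-fold, limma adjusted p = 3.1e-08). Tnfrsf1b was higher than EV in WT (log2 difference 0.58, adjusted p = 4.6e-15) and in H499A (0.28, 1.96e-08), and Tnfaip3 lower in both (-0.33, 3.95e-10, and -0.16, 9.41e-05). In WT, Cflar was higher (0.27, 1.56e-07) and Ripk3 lower (-0.25, 4.65e-07) than in EV, and in H499A the necroptosis gene Mlkl was higher (0.18, 0.000481). Between WT and H499A 4 were higher, 5 lower and 5 not called, with Tnfrsf1b (0.31, 3.37e-09) and Cflar (0.31, 2.76e-08) higher and Mlkl (-0.26, 3.3e-06) lower. The list's medians in the same order were 0.01, -0.05, 0.04, 0.02, 0.05, 0.02 and -0.01.

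A short list of 6 genes was drawn up for the turnover of MCL1 protein, of which 4 were tested in each comparison. For its members Trib1 and Trib2 a role in MCL1 turnover is not established here. With UNC1999 2 were higher and 1 lower, and the ubiquitin ligase gene Huwe1, whose product targets MCL1, was 1.10-fold the DMSO level (limma adjusted p = 0.00278). Fbxw7 was 1.31-fold (0.00494) and Trib2 0.541-fold (0.00471) the DMSO level. With JQEZ5 2 were lower, Trib2 (0.316-fold, adjusted p = 0.000248) and the deubiquitinase gene Usp9x (0.919-fold, adjusted p = 0.0479). The Usp9x call was lost without any 1 of 5 libraries (adjusted p up to 0.183). Between the inhibitors Huwe1 (1.11-fold, adjusted p = 0.00230) and Usp9x (1.14-fold, adjusted p = 0.00269) were higher in UNC1999. In shKdm5b cells 3 were lower, with Trib1 at 0.444-fold (adjusted p = 0.00217), Huwe1 at 0.828-fold (0.0239) and Usp9x at 0.829-fold (0.0402) the shEV level. Without any 1 of the shEV libraries 1 was called, and Huwe1 (0.0714 to 0.0805) and Usp9x (0.0978 to 0.116) were not. Without shKdm5b replicate 1 their log2 differences were -0.18 for Huwe1 and -0.16 for Usp9x, against -0.27 and -0.26 with it. In WT cells the ligase gene Fbxw7 was 0.596-fold the EV level (limma adjusted p = 1.14e-08), and Trib1 0.517-fold (7.78e-10), while Usp9x was higher (1.10-fold, 0.00142), a call lost without WT replicate 1 (0.0525) or EV replicate 2 (0.0617). In H499A cells Usp9x was higher (0.000306) and Huwe1 lower (0.0102). The Huwe1 call was lost with quantile normalisation (0.177) and without trend (0.0671). It was also lost without H499A replicate 2 or EV replicate 1, where the log2 differences were -0.065 and -0.072. Between WT and H499A 2 were lower, Trib1 (0.557-fold, adjusted p = 1.43e-08) and Fbxw7 (0.631-fold, adjusted p = 1.58e-07). Where no gene of this list was called in a direction, none was at an unadjusted p under 0.05 or by voom. The list's medians in the same order were 0.10, -0.06, 0.16, -0.27, -0.20, -0.05 and -0.17.

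The size of a gene's pattern was summed over the 5 comparisons with a control as a root mean square log2 difference of the deposited values. It was 0.33 for Bcl2, 0.32 for Bcl2l11, 0.29 for Pmaip1 and 0.29 for Mcl1, and 7.02%, 7.85%, 9.50% and 9.56% of the 9031 genes tested in all 3 tables had a larger value. Bid and Bak1, at 0.095 and 0.099, were exceeded by 72.0% and 69.2% of genes. The deposited scale is compressed for low counts, so this order depends in part on a gene's level. The value for Bcl2 came mostly from 1 comparison, H499A against EV (-0.74). By the smallest root mean square distance over the same 5 differences, the genes nearest to Bcl2 among 8420 were Cst7 (0.0991), Slco4a1 (0.145) and Kif16b (0.146). Nearest to Bcl2l11 were Plekhm2 (0.0577), Sh3bp2 (0.0607) and Itpr2 (0.0651), and nearest to Pmaip1 were Parvg (0.0626), Zc3hav1l (0.0783) and Hmgb1 (0.0786). These are descriptions over 5 comparisons, 4 of which share controls in pairs.

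Read assignment limits other members too. Exons of Bak1 (chr17:27019810-27029009, minus strand, GRCm38) overlap Ggnbp1 on the opposite strand, whose counts were at most 151 on average in any group. Exons of Bid (chr6:120891930-120916853, minus strand) overlap Bcl2l13 on the opposite strand, which was called in none of the 7 comparisons by limma, with log2 differences of -0.10 to 0.04. The sources used here do not say whether counting used strand.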

How the data were processed

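RNA sequencing was deposited as 3 tables, 1 per experiment. Libraries came from 1 µg of total RNA and either of 2 kits, per the labels' protocols, which assign no kit to a library. Per the submitters' processing notes, mm10 (GRCm38.p4), STAR 2.4.2, Salmon 0.1.19 and DESeq2 1.38.2 were used. The authors deposited log2 values. Their form, that of a variance-stabilising transformation, was read from the values themselves, and low counts are compressed towards the lowest value of each table (6.88278, 7.43603 and 8.18232).

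Undoing that transformation gave normalised counts that were whole multiples of 1 step per library for 100% of values (tolerance 0.05), hence reads and depth. A gene was tested where enough libraries to fill the smallest group exceeded the table's minimum by 1 log2 unit: 10694, 10810 and 9458 of 14178, 15623 and 13949, including 7 of the 8 members each time. Bcl2a1b lay below this filter. A gene could pass it through 1 group alone, so the level in a reference group may lie below it. The unit of each test was the deposited log2 value. Limma 3.58.1 in R 4.3.3 fitted 1 mean per group (eBayes with trend), with Benjamini-Hochberg adjustment over all tested genes and calls at an adjusted p under 0.05. Every adjusted p in the text is from this fit unless voom is named. Intervals are 95%. The scripts were tested on simulated data.

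Named genes are the 8 members, Kdm5b, up to 4 called genes with the lowest adjusted p per list and comparison, and for 3 members the 3 nearest genes, leaving out predicted genes. Some genes that this rule names are not reported here. Bax in the knockdown, Bmf in WT and overlapping genes were added after their values were seen. Members and lists were chosen with earlier results of these data known. Exon lengths and coordinates are from GENCODE M21 on GRCm38, promoters from RefSeq on GRCm38.p6 (32851 windows), where 4 members are shown.

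The alternatives changed the filter (none, or 2 log2 units), the scaling (medians centred, or quantiles), the variance model (no trend, or robust), the samples (each library dropped in turn, or just the compared pair of groups) and the design (replicate block). A further one was voom on the recovered reads, also with the Bcl2a1 copies summed.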

Additional observations from a re-analysis of the deposited data

Results flagged for a closer look

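The listed members differed between 2 treated groups that share a control, tested directly by limma with adjustment over all genes of the table. Between UNC1999 and JQEZ5 the log2 differences were 0.36 for Mcl1, 0.36 for Bcl2l11, -0.12 for Bid and -0.17 for Pmaip1, with adjusted p of 1.89e-07, 1.19e-05, 0.0207 and 0.00589. All 3 UNC1999 libraries lay on the stated side of all 3 JQEZ5 libraries for each of the 4 genes.

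Between WT and H499A the log2 differences were 0.83 for Bcl2, -0.18 for Bcl2l1, 0.057 for Mcl1, 0.23 for Bcl2l11, 0.16 for Bid, -0.18 for Bak1 and -0.12 for Pmaip1. Their adjusted p were 1.62e-18, 0.000423, 0.0430, 2.1e-05, 6.03e-05, 2.09e-06 and 0.000707. Both WT libraries lay on the stated side of both H499A libraries for each of the 7 genes.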

How the results depend on the processing

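Of 439 values of single members under settings other than leaving out a library, 426 kept their direction and their side of the threshold. Of the exceptions below the threshold, 4 changed sign near 0: Bak1 between UNC1999 and JQEZ5 (-0.0037 with quantile normalisation, -0.0095 with voom), Bcl2l11 in the knockdown (0.0069 with median centring) and Bcl2a1b with JQEZ5 (0.072 with the copies summed). Another 5 kept their sign and gained a call. These were Bak1 with UNC1999 (quantile normalisation, only these 2 groups, voom), Bid with UNC1999 (quantile normalisation) and Bcl2a1b in the knockdown (copies summed). Bnip3, a list gene called higher with UNC1999, read -0.015 with quantile normalisation. Mcl1 between WT and H499A lost its call with no filter (adjusted p = 0.0550), median centring (0.140), eBayes without trend (0.119) and only these 2 groups (0.0527). The cause was not tested. Leaving out single libraries, the members called in the knockdown numbered 1 to 2, and all genes called there 1907 to 5556, against 3509. Uncalled differences changed sign for Bcl2 with UNC1999 (-0.050 to 0.13), Bcl2 with JQEZ5 (-0.0048 to 0.17), Pmaip1 with JQEZ5 (-0.075 to 0.0087), Bak1 between the inhibitors (-0.031 to 0.038), and Bcl2 (-0.028 to 0.091) and Bcl2l11 (-0.025 to 0.016) in the knockdown. Deviations of libraries with the same replicate number correlated at -0.15 to 0.22. The highest were 0.22 for replicate 1 of the knockdown and 0.16 for replicate 1 of UNC1999 with JQEZ5. With 2 libraries a group, as in the overexpression, the deviations mirror each other. These values cannot decide whether the numbers pair samples. With the replicate block the members called were 4, 3, 4, 2, 6, 5 and 7 in the order UNC1999 and JQEZ5 against DMSO, UNC1999 against JQEZ5, shKdm5b, WT, H499A, and WT against H499A, the same numbers as without it. With 2 libraries a group, a left-out library leaves a lone sample that is assumed to vary like the rest of the table. Depth limits Bcl2a1b, at 0 to 82 reads a library.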
